A study of Danio rerio with 8 samples.

Results

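The epidermal growth factor (EGF) receptor family and its ligands were followed in the RNA of adult zebrafish corneas after abrasion. The genes were chosen by name. They comprise 5 receptor genes (egfra, erbb2, erbb3a, erbb3b and erbb4a) and 5 ligand genes (hbegfa, hbegfb, tgfa, areg and egf), or 10 of the genes in a table of 32520 Ensembl identifiers. In all 12 identifiers were matched to these names, since 3 identifiers share the symbol ERBB4 and were kept apart. Of the 12, 9 had enough counts to be tested, as had 18935 identifiers of the whole table.

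The wounded corneas came from wild type fish of the AB background whose 2 corneas were both abraded with an ophthalmic burr, and they were collected after 1.5 h. The control corneas came from untreated wild type AB fish that were anesthetized and held on a sponge for as long as the wounded fish. Each library held 6 corneas pooled from 3 fish, so that the libraries and not the fish are the replicates. There were 4 wounded and 4 control libraries, and the libraries with the same number came from the same tank and had the same age. The fish of tank 1 were 180 days old, those of tank 2 were 145 days, those of tank 3 were 148 days and those of tank 4 were 183 days. The submitters left wounded library 1 out of their comparison, and the values below compare wounded libraries 2 to 4 with control libraries 1 to 4 unless all 8 are named, with wounded library 1 given apart.

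The library totals lay between 39472162 and 42393109 counts in the wounded and between 40524885 and 44250662 counts in the control libraries. The summed level of 12 identifiers of corneal and surface epithelium was 60070 to 64490 CPM (counts scaled to library size, TMM-normalized) in wounded libraries 2 to 4, 64770 to 67480 CPM in the control libraries and 41800 CPM in wounded library 1, the lowest of the 8. In wounded against control corneas 2 of these 12 were called lower and none higher (0.634% and 0.734% of all genes tested). The sum was mostly krt5, with means of 39660 CPM in wounded libraries 2 to 4 and 42050 CPM in the control libraries. Of the 12, 3 (krt5 and both PAX6 identifiers) had wounded libraries 2 to 4 all below the control libraries (9.02% of all genes tested). The PAX6 means were 115 and 30.0 CPM in wounded libraries 2 to 4, and 280 and 88.2 CPM in the control libraries. Another identifier, epcam, had wounded libraries 2 to 4 all above (8.51% of all genes), with means of 3897 and 3255 CPM. The rest overlapped. Keratocyte markers summed to 9403 to 17020 CPM in wounded libraries 2 to 4, 8868 to 14080 CPM in the control libraries and 6266 CPM in wounded library 1, and none of the 10 identifiers of that list was at 0 in every library. Retina markers summed to 137 to 281 CPM in wounded libraries 2 to 4, 134 to 297 CPM in the control libraries and 343 CPM in wounded library 1, and lens markers stayed below 1 CPM, with 2 of 7 identifiers (cryba1b and one MIP copy) at 0 in all 8 libraries. Endothelial markers, with 5 identifiers, summed to 51.2 to 71.9 CPM in the wounded and 43.9 to 49.8 CPM in the control libraries, and none of them was called. On the first principal component, with 27.5% of the variance, the libraries separated by age and not by abrasion. On the second, with 19.9%, wounded libraries 2 to 4 (11.2, 14.8 and 20.3) lay above the control libraries (-25.7 to 3.6). Wounded library 1, at 1.7, lay within the control range there. In whole corneas a lower value can mean fewer cells of a type or less RNA per cell, and these cannot be told apart.

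The EGF receptor (Egfr, or ErbB1) and its relatives ErbB2, ErbB3 and ErbB4 are tyrosine kinases of the cell surface that act in pairs. ErbB2 has no known ligand and ErbB3 has little kinase activity of its own, so that both work chiefly as partners. The ligands are made as precursors in the membrane and are released by proteases such as Adam10 and Adam17. Heparin-binding EGF-like growth factor (HB-EGF), amphiregulin, transforming growth factor alpha and EGF all bind the EGF receptor, though not each of them binds it alone. Neuregulins bind ErbB3 and ErbB4. In mammals, release of HB-EGF and activation of the EGF receptor are early steps in the closure of corneal epithelial wounds.

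Among the ligands, hbegfa was the one whose wounded and control libraries did not overlap. This gene (ENSDARG00000075121) encodes one of the zebrafish copies of HB-EGF. It had 403, 370 and 284 CPM in wounded libraries 2 to 4, against 242, 205, 134 and 208 CPM in control libraries 1 to 4. All 3 wounded libraries thus lay above all 4 control libraries, and wounded library 1, at 250 CPM, lay above the control libraries as well but below the other wounded ones. The mean was 352 ± 61.6 CPM (SD, n = 3) in wounded and 197 ± 45.3 CPM (SD, n = 4) in control corneas.

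The log2 fold change of hbegfa, wounded over control, was 0.83 (standard error 0.19). It missed the threshold of 0.05 in edgeR's quasi-likelihood test (Benjamini-Hochberg adjusted p = 0.0644 over all genes tested). Blocking on the tank gave 0.95 (standard error 0.17, edgeR adjusted p = 0.0199), and DESeq2 without the block gave an adjusted p of 0.00314. In this block control library 1, the highest control library for hbegfa, had no wounded partner. Blocked fold changes without wounded library 1, here and below, thus rest on tanks 2 to 4. A fit of all 8 libraries gave 0.73 (edgeR adjusted p = 0.0885), and the block did not restore the call there (0.73, edgeR adjusted p = 0.0735, over all 4 tanks). The call of hbegfa therefore depended on the block, the tool, the filter on low counts and, under the block, on leaving out wounded library 1, while its direction was the same in each of these fits. The sum of the epithelial markers was lower, and that of the endothelial markers higher, in every wounded than in every control library. The epithelial sum was mostly krt5, and epcam of the same list went the other way. The endothelial sum was mostly kdrl and TIE1. Of these, TIE1 had wounded libraries 2 to 4 all above the control libraries (8.51% of all genes tested), and kdrl overlapped. The wounded and control means were 0.62 and 0.67 CPM for cdh5, 0.46 and 0.50 CPM for vwf, and 2.47 and 2.28 CPM for tek. Of 11 leukocyte markers, 5 had all of wounded libraries 2 to 4 above all control libraries, against 8.51% of all genes tested. None of the 11 was called in edgeR, and 2 were called higher with the tank as a block (2.71% of all genes). The sum of the 11 overlapped, at 847 to 1060 CPM in wounded libraries 2 to 4, 665 to 1083 CPM in the control libraries and 739 CPM in wounded library 1. Among the 5 was an identifier of the macrophage gene MPEG1 (ENSDARG00000043093). It had 28.5, 24.2 and 48.6 CPM in wounded libraries 2 to 4, against 12.8, 20.8, 11.7 and 13.3 CPM in control libraries 1 to 4. The other MPEG1 identifiers overlapped between the groups. The mean of ENSDARG00000055290 was 14.0 CPM in wounded libraries 2 to 4 and 13.0 CPM in the control libraries. That of ENSDARG00000078569 was 0.41 and 0.76 CPM. The sums of keratocyte, pigment cell and erythrocyte markers overlapped between the groups, and 1 marker of each was called higher with the block (2.71% of all genes). LUM of the keratocyte list and pnp4a of the pigment cell list had wounded libraries 2 to 4 all above the control libraries (8.51% of all genes tested). The part of these cell types in the hbegfa difference was not tested.

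**Figure D1:**
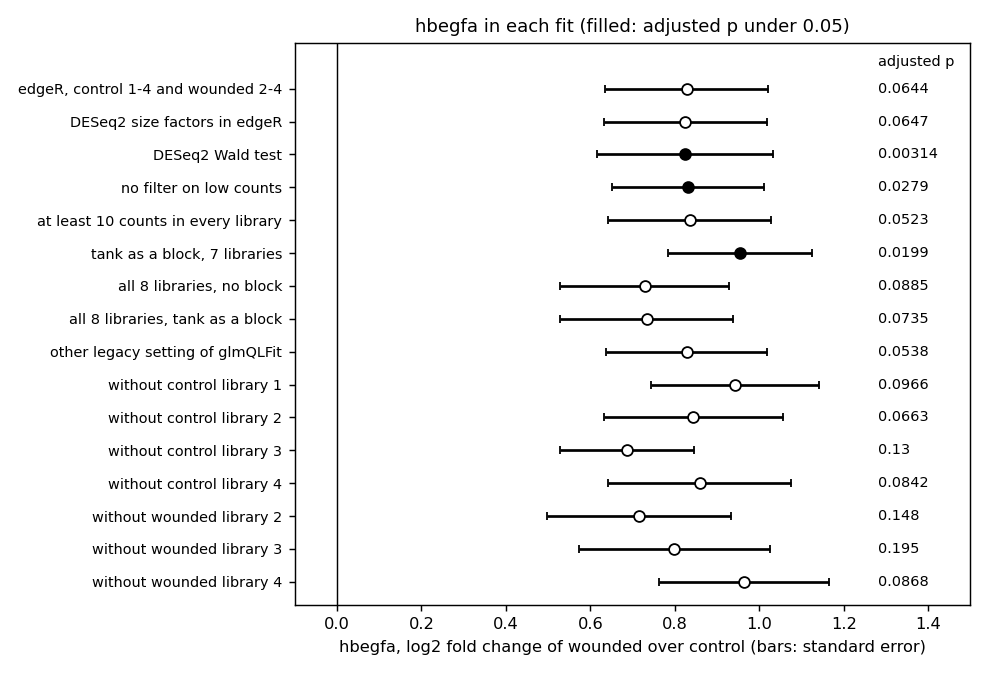
Log2 fold change of hbegfa, wounded over control (x axis, bars give the standard error), in each fit (rows), with the adjusted p at the right and filled points where it is under 0.05. All 16 values lie between 0.69 and 0.96, and 3 fits have an adjusted p under 0.05.

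The other HB-EGF copy, hbegfb (ENSDARG00000031246), had far fewer counts. It had 6.71, 7.54 and 3.60 CPM in wounded libraries 2 to 4, against 2.54, 5.99, 3.55 and 3.22 CPM in control libraries 1 to 4. The groups overlapped, because control library 2 lay among the wounded libraries, and wounded library 1 had 5.68 CPM. Wounded over control, hbegfb had a log2 value of 0.63 (standard error 0.33, edgeR adjusted p = 0.351) and was not called in any of the fits that were made.

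The ligand areg (ENSDARG00000076853), which encodes amphiregulin, had a negative fold change that missed the threshold. It had 5.61, 4.57 and 7.13 CPM in wounded libraries 2 to 4, against 4.95, 9.54, 6.31 and 9.27 CPM in control libraries 1 to 4. The groups overlapped, since control libraries 1 and 3 both lay below wounded library 4. Control library 1 was the lowest of the controls, and wounded library 1 of the same tank was low too (4.78 CPM). For areg it came to -0.39 on the log2 scale (standard error 0.27, edgeR adjusted p = 0.470), or -0.55 (standard error 0.18, edgeR adjusted p = 0.115) with the tank as a block.

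The gene tgfa (ENSDARG00000053939) encodes transforming growth factor alpha. It had 1.74, 2.94 and 2.41 CPM in wounded libraries 2 to 4, against 1.32, 1.05, 2.71 and 2.78 CPM in control libraries 1 to 4. The control libraries fell into a low pair and a high pair, and all the wounded values lay within or just above the control range (2.51 CPM in wounded library 1). For tgfa the log2 difference was 0.26 (standard error 0.39, edgeR adjusted p = 0.772). The gene egf (ENSDARG00000052739) was near the limit of detection, with 0, 3 and 0 counts in wounded libraries 2 to 4, against 13, 0, 3 and 8 counts in control libraries 1 to 4 and 4 counts in wounded library 1. It was too low to be tested, and no fold is given.

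Among the receptors, egfra (ENSDARG00000013847) encodes the zebrafish EGF receptor. It had 110, 128 and 112 CPM in wounded libraries 2 to 4, against 145, 111, 146 and 171 CPM in control libraries 1 to 4. Control library 2 was as low as the wounded libraries, so that the groups overlapped, and wounded library 1, at 153 CPM, lay within the upper part of the control range. The mean was 117 ± 9.57 CPM (SD, n = 3) in wounded and 143 ± 24.5 CPM (SD, n = 4) in control corneas, or -0.31 on the log2 scale (standard error 0.15, edgeR adjusted p = 0.313). With all 8 libraries it was -0.19 (edgeR adjusted p = 0.595).

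The receptor erbb2 (ENSDARG00000026294), the partner without a ligand, was read at a low level. It had 2.91, 3.02 and 3.07 CPM in wounded libraries 2 to 4, against 1.59, 3.61, 2.36 and 1.92 CPM in control libraries 1 to 4. The 3 wounded libraries were close to each other and fell inside the control range, whereas wounded library 1 had 1.97 CPM. For erbb2 the log2 difference was 0.33 (standard error 0.30, edgeR adjusted p = 0.610).

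Both copies of ErbB3 were well detected. The copy erbb3a (ENSDARG00000006202) had 59.8, 47.3 and 42.4 CPM in wounded libraries 2 to 4, against 55.1, 75.0, 59.5 and 41.5 CPM in control libraries 1 to 4. The values overlapped, and in each group the library of tank 2 was the highest and that of tank 4 the lowest of tanks 2 to 4. For erbb3a the log2 difference was -0.22 (standard error 0.20, edgeR adjusted p = 0.60). Wounded library 1 had 68.9 CPM of erbb3a, above 3 of the 4 control libraries.

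The copy erbb3b (ENSDARG00000036993), which zebrafish need for Schwann cell migration along axons, had like values in both groups. It had 75.4, 83.7 and 87.6 CPM in wounded libraries 2 to 4, against 66.2, 85.6, 82.2 and 83.8 CPM in control libraries 1 to 4. Nearly all libraries lay within a narrow band, and both libraries of tank 1 were low (60.2 CPM in wounded library 1). Its log2 difference was 0.04 (standard error 0.13, edgeR adjusted p = 0.909), with the sign turned in some fits. Markers of Schwann cells other than erbb3b, with 7 identifiers, summed to 151 to 202 CPM in the wounded and 149 to 223 CPM in the control libraries. None of them was called, and 1 was called higher with the tank as a block (2.71% of all genes). Of the 7, 2 had wounded libraries 2 to 4 all above the control libraries (8.51% of all genes tested).

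For ErbB4 the symbol did not tell the copies apart, so that which identifier is erbb4a was not resolved. ENSDARG00000089536 had 81, 24 and 58 counts in wounded libraries 2 to 4, against 44, 58, 51 and 75 counts in control libraries 1 to 4, and 13 counts in wounded library 1. The wounded libraries spread more widely than the control libraries and enclosed them. Its log2 difference was -0.04 (standard error 0.42, edgeR adjusted p = 0.975). The other ERBB4 identifiers, ENSDARG00000063207 and ENSDARG00000090408, had no more than 8 counts in any library and were not tested.

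**Figure D2:**
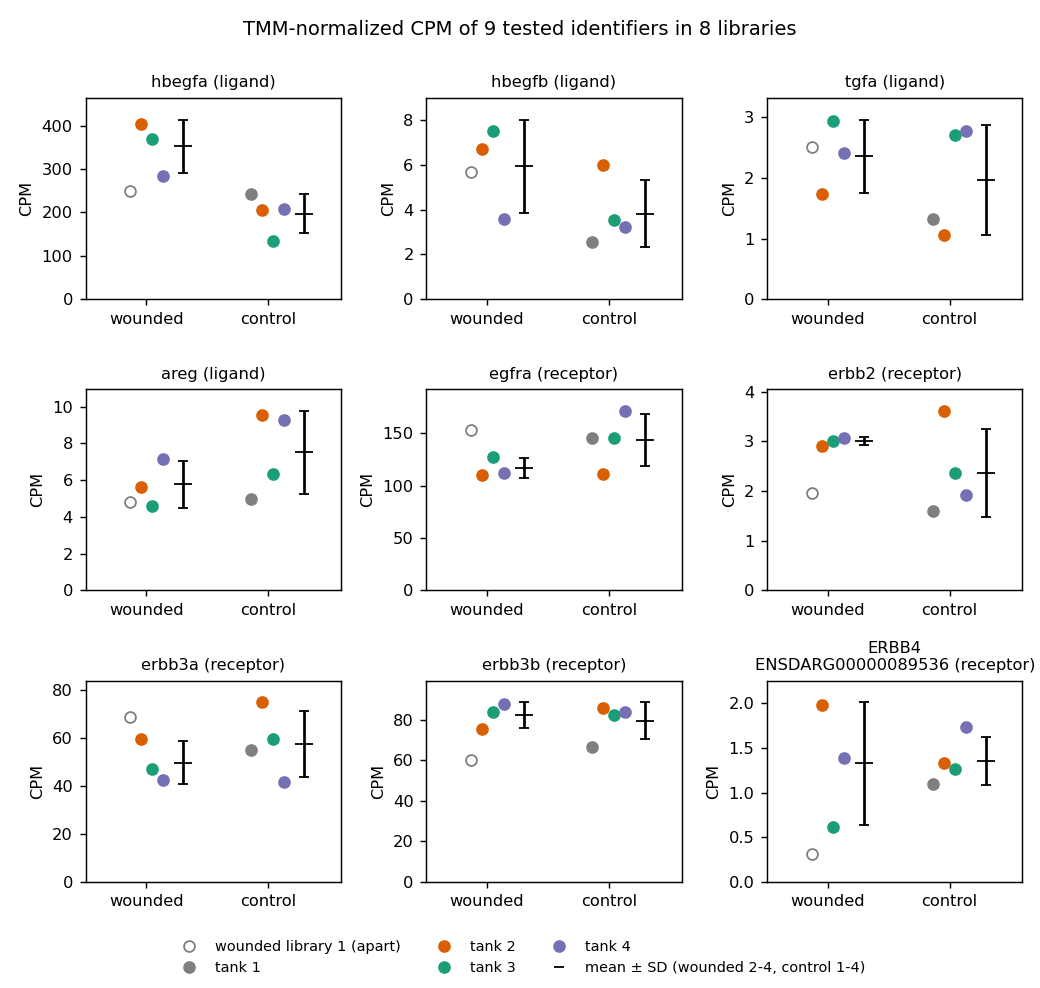
CPM (y axes, from 0) of the 9 tested identifiers in wounded (left) and control (right) libraries, with a colour for each tank, wounded library 1 as an open circle, and the mean ± SD of wounded libraries 2 to 4 and control libraries 1 to 4 as bars. For hbegfa alone of the 9, the wounded libraries (284 to 403 CPM) lie apart from the control libraries (134 to 242 CPM).

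In edgeR none of the 9 tested identifiers was called in either direction, where 1.37% of all genes tested were (0.734% higher and 0.634% lower). With all 8 libraries none was called either, where 1.26% of all genes were (0.790% higher and 0.468% lower). At an unadjusted p under 0.05 there was 1 of 9 (hbegfa), against 18.5% of all genes. With the tank as a block 1 of 9 was called, hbegfa, against 5.22% of all genes, and in DESeq2 1 of 9, also hbegfa, against 9.03%. The wounded and control libraries did not overlap for 1 of 9, against 17.5% of all genes tested (8.51% with the wounded above and 9.02% with the wounded below). A single identifier of 9 does not set the family apart from other genes. The median log2 fold change was 0.44 over the 4 tested ligands and -0.04 over the 5 tested receptor identifiers, against 0.01 over all genes.

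Within tanks, hbegfa was higher in the wounded than in the control library in all 4 tanks. The log2 difference of hbegfa was 0.05 in tank 1, 0.98 in tank 2, 1.46 in tank 3 and 0.45 in tank 4. Those of hbegfb were 1.16, 0.16, 1.09 and 0.16 in tanks 1 to 4, so that both copies were high in tank 3 and only hbegfb in tank 1. Conversely, areg was lower in the wounded library in tanks 2 to 4, with log2 differences of -0.77, -0.46 and -0.38. In tank 1 it was nearly level, at -0.05. There the raw counts were 202 in the wounded and 199 in the control library, so that the sign in tank 1 depends on the scaling of the libraries.

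No receptor differed in the same direction in all 4 tanks. The log2 difference of egfra was 0.08 in tank 1, -0.02 in tank 2, -0.19 in tank 3 and -0.61 in tank 4. It was negative in tanks 2 to 4, with the largest size in the tank where control library 4 was high. For erbb3a and erbb3b the differences had both signs and lay between -0.33 and 0.32. Tank 1 uses wounded library 1, and without that tank egfra kept a single sign as hbegfa, hbegfb and areg did. The share of all genes with a single sign over the tanks was not computed. The signs thus do not set the ligands apart from the receptors.

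**Figure D3:**
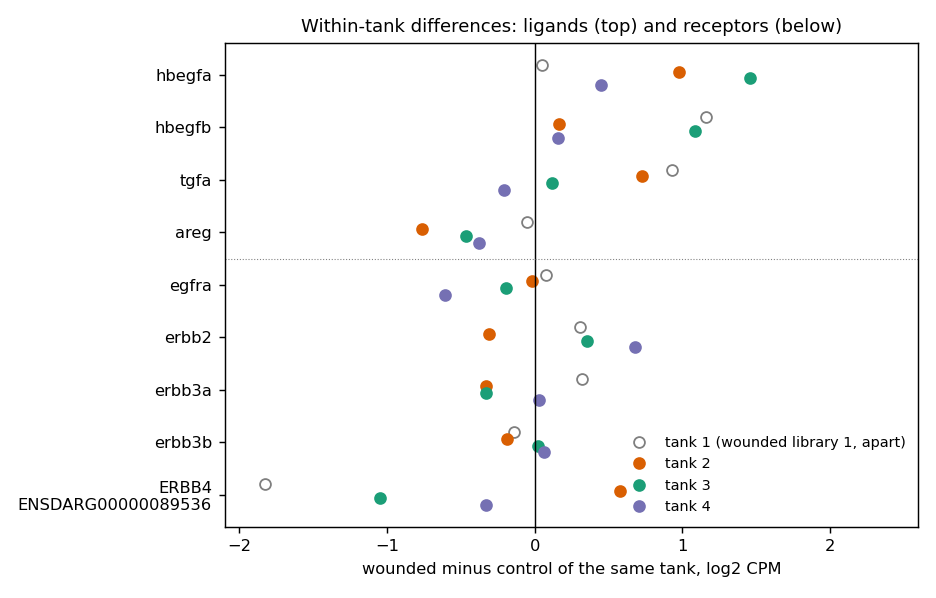
Log2 CPM of the wounded library minus the control library of the same tank (x axis) for 4 ligands (above the dotted line) and 5 receptor identifiers (below it), with a point for each tank and tank 1 open. For hbegfa and hbegfb the points of all 4 tanks lie above 0, for areg they lie below 0, and for the receptors they lie on both sides. For egfra the points of tanks 2 to 4 lie below 0, and tank 1 uses wounded library 1. For hbegfa and areg the point of tank 1 is close to 0.

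The level of hbegfa relative to egfra within a library was also given, as this does not depend on the scaling of the libraries. The log2 ratio of hbegfa to egfra CPM was 1.87, 1.54 and 1.34 in wounded libraries 2 to 4, against 0.74, 0.88, -0.12 and 0.28 in control libraries 1 to 4. The wounded libraries lay above the control libraries, whereas wounded library 1, at 0.71, lay among them. The mean ratio differed by 1.14 between the groups, as a description with no test. The ratio of hbegfb to egfra differed by 0.93, that of tgfa to egfra by 0.64 and that of areg to egfra by -0.07, each of the 3 with overlapping groups. All 4 ratios share egfra, whose mean was lower in wounded corneas. These ratios are not corrected for gene length, so that their change between libraries can be read but not which gene was more abundant.

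The age of the fish was compared over all 8 libraries, 180 and 183 days against 145 and 148 days. Each age was a single tank, so that age and tank cannot be told apart. The fit had no tank term, and the wounded and control libraries of a tank entered it as separate libraries. Its p-values thus measure the spread between pools and not between tanks. None of the 9 tested identifiers was called (edgeR adjusted p = 0.540 to 0.993), where 0.125% of all genes tested were (0.0849% higher and 0.0400% lower). At an unadjusted edgeR p under 0.05 there was 1 of 9, against 7.13% of all genes. In DESeq2 none of the members was called either, and its counts over all genes are given in the last paragraph. The log2 differences, older over younger, lay between -0.67 and 0.23. The lowest was that of hbegfb, with 3.76 ± 1.36 CPM in older and 5.95 ± 1.72 CPM in younger fish (standard error of the log2 difference 0.24). These SDs are over n = 4 libraries each, wounded and control together, and not over tanks.

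Whether the change after abrasion differed with age was tested as an interaction. For hbegfa the log2 effect in older minus that in younger fish was -0.95 (standard error 0.32), with an unadjusted edgeR p of 0.0137 and an adjusted p of 1. This fit too had no tank term, so that its p-value measures the spread between pools and not between tanks. With the tank as a block over all 8 libraries the sign was the same and hbegfa was not called. The older fish include wounded library 1, and without it the value, with no block, was -0.84. In edgeR none of the 20018 genes that passed the filter on low counts was called in this test (0% of genes; 1.95% had an unadjusted p under 0.05), and in DESeq2 none was called either. Without that filter edgeR called 25 genes higher and 12 lower, with no member among them. With 2 libraries per age and condition the adjusted test does not show a difference between the ages for any member.

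The other genes of the family were read from a list of 10 symbols, of which 3 were not matched and 1 (erbb4b) has the ERBB4 identifiers given above. None of the 6 tested identifiers was called by edgeR, blocked or not, or by DESeq2, and 1 had an unadjusted p under 0.05 (over all genes 1.37%, 5.22% and 9.03% were called by edgeR, blocked edgeR and DESeq2, and 18.5% had an unadjusted p under 0.05). This was nrg1, which encodes neuregulin 1, a ligand of ErbB3 and ErbB4. It had 184, 232 and 155 CPM in wounded libraries 2 to 4, against 158, 146, 131 and 140 CPM in control libraries 1 to 4. Wounded library 4 lay just below control library 1, so that the groups overlapped, and wounded library 1 had 189 CPM. For nrg1 the log2 difference was 0.39 (standard error 0.15, edgeR adjusted p = 0.191). The ligand gene epgn (epigen) spanned 142 to 235 CPM in wounded libraries 2 to 4 and 98.7 to 200 CPM in the control libraries, and was highest in wounded library 1, at 302 CPM. Both genes were singled out after their values had been seen.

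The ligands are released by another set of genes. Of 10 tested identifiers of Adam proteases and rhomboid-like proteins none was called by edgeR with or without the block or by DESeq2, and 1 had an unadjusted p under 0.05, against 18.5% of all genes. Of 9 tested partners of HB-EGF at the cell surface (Cd9, Cd44, syndecans, glypicans and perlecan) none was called in edgeR (1.37% of all genes) and 2 had an unadjusted p under 0.05 (18.5% of all genes), with a median log2 fold change of 0.39 against 0.01 over all genes. One of these, the heparan sulfate proteoglycan sdc4, was named after its values had been seen. It had 780, 1053 and 699 CPM in wounded libraries 2 to 4, against 413, 554, 409 and 572 CPM in control libraries 1 to 4. The groups did not overlap, and wounded library 1 was the highest of all at 1333 CPM. The log2 fold change of sdc4 was 0.78 (standard error 0.17, edgeR adjusted p = 0.0569), or 0.70 with the tank as a block (edgeR adjusted p = 0.0576) and 0.99 with all 8 libraries (edgeR adjusted p = 0.0426), and DESeq2 gave an adjusted p of 0.00273.

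Downstream of the receptors, none of 24 tested adaptors and Ras-MAPK genes was called by edgeR (blocked or not) or by DESeq2 (1.37%, 5.22% and 9.03% of all genes), and 2 had an unadjusted p under 0.05, against 18.5% of all genes. The same holds for 19 tested genes of PI3K, Akt, phospholipase C and Stat signaling, of which 3 had an unadjusted p under 0.05, again against 18.5%. The median log2 fold changes of these lists were -0.03 and 0.10.

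The list of inhibitors and turnover genes of the receptors contained 4 calls. It was written with earlier results of these data known. It also holds dusp4, dusp5 and dusp6, which encode phosphatases of MAP kinases and not of the receptors, and dusp4 and dusp5 are among its calls. Of 23 tested identifiers, 3 rose and 1 fell in edgeR (background 0.734% higher and 0.634% lower). The same list had 3 higher and 3 lower with the tank as a block (2.71% and 2.51% of all genes) and 4 higher and 5 lower in DESeq2 (4.22% and 4.80%). Its median log2 fold change was -0.18, with 9 positive and 14 negative values.

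The ubiquitin ligase gene rnf41, whose mammalian product Nrdp1 marks ErbB3 for degradation, fell in wounded corneas. It had 13.4, 10.6 and 14.3 CPM in wounded libraries 2 to 4, against 22.9, 22.0, 24.5 and 23.0 CPM in control libraries 1 to 4. The groups lay well apart, and wounded library 1 (12.9 CPM) was with the other wounded libraries. For rnf41 the log2 difference was -0.87 (standard error 0.15, edgeR adjusted p = 0.0320, or 0.0177 with the tank as a block).

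The gene spry4, a Sprouty inhibitor of receptor tyrosine kinase signaling, rose. It had 70.2, 106 and 82.8 CPM in wounded libraries 2 to 4, against 45.9, 49.1, 43.2 and 54.9 CPM in control libraries 1 to 4. All wounded libraries, wounded library 1 (94.2 CPM) included, lay above the control libraries. For spry4 the log2 difference was 0.83 (standard error 0.16, edgeR adjusted p = 0.0379). Its relative spry1, named after its values had been seen, had 3.40, 3.30 and 2.33 CPM in wounded libraries 2 to 4, against 6.05, 8.12, 8.10 and 4.66 CPM in control libraries 1 to 4. Its groups did not overlap, with the wounded libraries below, and its log2 difference was -1.17 (edgeR adjusted p = 0.0582, or 0.0151 with the block). The gene cblc, also named after its values had been seen, was lower (log2 -0.91, edgeR adjusted p = 0.0612, or 0.0287 with the block). Its wounded library 1 (7.86 CPM) lay among the control libraries, unlike wounded libraries 2 to 4. Called in DESeq2 but in edgeR neither with nor without the block were errfi1 (higher, DESeq2 adjusted p = 0.0297), socs5a (lower, 0.0458) and ptpn2a (lower, 0.0418).

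The MAP kinase phosphatase genes dusp4 and dusp5, which are induced by ERK signaling in mammalian cells, rose most on this list. The gene dusp4 had 11.6, 15.9 and 17.2 CPM in wounded libraries 2 to 4, against 5.55, 4.83, 2.83 and 5.51 CPM in control libraries 1 to 4. Its log2 fold change was 1.66 (standard error 0.25, edgeR adjusted p = 0.0180). The lowest wounded library, wounded library 1 at 9.52 CPM, lay above all control libraries.

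The gene dusp5 had 781, 922 and 1029 CPM in wounded libraries 2 to 4, against 177, 279, 268 and 492 CPM in control libraries 1 to 4. Wounded library 1, at 636 CPM, lay above the control libraries too. The log2 fold change of dusp5 was 1.57 (standard error 0.27, edgeR adjusted p = 0.0320). In edgeR fits without 1 library, the calls of dusp4, dusp5, spry4 and rnf41 held in 4, 3, 3 and 2 of 7 fits. The adjusted p rose to as much as 0.0991 for dusp4, 0.128 for dusp5, 0.145 for rnf41 and 0.154 for spry4, in each case without wounded library 3. None of these 4 calls held without control library 1 (edgeR adjusted p = 0.0518 to 0.107) or without wounded library 4 (0.0578 to 0.0924) either. Without control library 3 those of dusp5, spry4 and rnf41 were lost (0.105 to 0.128), and without wounded library 2 that of rnf41 (edgeR adjusted p = 0.0610).

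**Figure D4:**
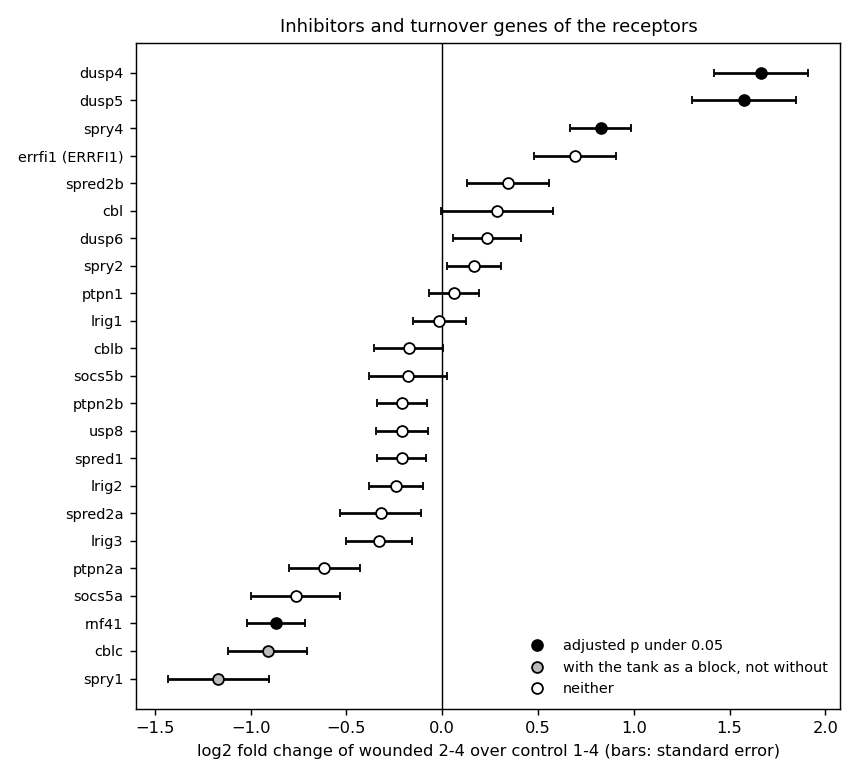
Log2 fold change of wounded over control (x axis, bars give the standard error) for the 23 tested identifiers of the list of receptor inhibitors and turnover genes (rows). The list includes the MAP kinase phosphatase genes dusp4, dusp5 and dusp6. Points are filled where the edgeR adjusted p is under 0.05 and grey where it is so with the tank as a block and not without it. The genes dusp4 (1.66), dusp5 (1.57) and spry4 (0.83) lie to the right and rnf41 (-0.87) to the left.

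The genes whose pattern over all 8 libraries was most like that of hbegfa were ptp4a3a, BCAP29, PRDX4, TC2N and the gene ENSDARG00000097416, with Pearson correlations of log2 CPM between 0.949 and 0.984, among 18601 genes compared. Those most like egfra were POLR1C, gjc4a.1, musk, FLVCR1 and ATP11A, with correlations between 0.941 and 0.969. None of these 10 genes was called in wounded against control corneas (edgeR adjusted p = 0.0669 to 0.391). These correlations rest on 8 libraries that share tanks and conditions, and are a description with no test.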

How the data were processed

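RNA of zebrafish corneas was sequenced from 4 wounded and 4 control libraries. The authors deposited raw counts. They selected poly(A) RNA, used a directional kit with single-end reads, aligned to GRCz11 (STAR 2.6.0c) and counted Ensembl release 97 genes with featureCounts. The strand setting is not given in the sources used here, so that reads of antisense partners cannot be told apart. Near-identical copies are uncertain.

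Tests used edgeR 4.0.16 in R 4.3.3 (filterByExpr, TMM, quasi-likelihood, Benjamini-Hochberg over 18935 genes, or 20018 for age) and DESeq2 1.42.0. Plots used matplotlib 3.10.9. The steps were tested on simulated data. CPM were scaled by TMM over all 8 libraries, with a prior count of 2 for correlations only. The p-values measure the spread between pools of fish.

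Of 32520 identifiers 29201 had a symbol. Symbols matched 6 members, synonyms or stems matched 3 (egfra as EGFR, erbb3a as ERBB3, hbegfb as HBEGF), and erbb4a shares ERBB4 among 3 identifiers. Gene lengths were not used here, so that levels are not compared between genes.

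The members and lists were chosen with earlier results of these data known. The text names all members, up to 6 called genes of each list and the 5 genes most like hbegfa and egfra. Cell markers and some further genes of the lists were named after their values had been seen. Libraries of one number shared an age and, by the study's methods, a tank, which is why they were paired. Their deviations correlated at 0.162, 0.245, 0.224 and 0.288 for numbers 1 to 4. Correlations between unlike numbers were not computed, so that these values do not test the pairing. The study's methods name no block, so that it was an alternative, beside DESeq2, its size factors, no filter, at least 10 counts in every library, all 8 libraries, the other dispersion setting and each library left out.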

Additional observations from a re-analysis of the deposited data

Results flagged for a closer look

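For erbb2, wounded library 1 stood apart from the other wounded libraries, at 1.97 CPM with the nearest at 2.91 CPM. A check of the lowest and highest library in groups of 4 gave this result alone among 26 groups, and chance gives about 1 in 20. For erbb3a, the wounded library was higher than the control library in both tanks of older fish and lower in both tanks of younger fish, and the mean log2 difference was higher in older fish by 0.51. The interaction of abrasion with age did not pass for erbb3a (edgeR adjusted p = 1). Of the older tanks, tank 1 had a difference of 0.32 that used wounded library 1, which the submitters left out. The difference in tank 4 was only 0.03, so that the contrast with age rests mainly on wounded library 1.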

How the results depend on the processing

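The log2 fold change of hbegfa was positive in all fits. It was called with the tank as a replicate block over 7 libraries (1 member higher), in DESeq2 (1 member higher) and without a filter on low counts (1 member higher, adjusted p = 0.0279 in edgeR), but neither with the block and all 8 libraries (edgeR adjusted p = 0.0735) nor in the 7 fits without 1 library (0.69 to 0.96, edgeR adjusted p = 0.0663 to 0.195), where no member was called. The sign of erbb3b turned with the block (-0.041 with 7 and -0.058 with 8 libraries), with all 8 libraries (-0.051) and in fits without 1 library (-0.037 to 0.095), and that of ENSDARG00000089536 without 1 library (-0.45 to 0.31); neither was called. Scaling by library totals gave 2.92 CPM for erbb2 in wounded corneas, where the SD was small (0.081). Over all genes, 139 were higher and 120 lower. These counts were 613 and 697 in DESeq2, 276 and 204 without a filter, 514 and 475 with the block and 456 and 349 with all 8 libraries and the block. Without 1 library they were 10 to 264 higher and 7 to 192 lower, both lowest without wounded library 3. Leaving out control library 1 gave 20 and 16, control library 3 gave 14 and 10, wounded library 2 gave 72 and 75 and wounded library 4 gave 40 and 16, whereas control library 2 gave the highest counts. For age, 17 genes were higher and 8 lower, against 106 and 92 in DESeq2, 213 and 177 without a filter, and 8 to 28 and 3 to 23 without 1 library. The interaction gave 25 and 12 genes without a filter and none otherwise. The cause of these changes was not tested. The block changed no other member's call. Lengths of transcripts or coding sequences were not used here, so that this alternative was not run. The standard errors of tgfa, erbb2 and hbegfb, at a few CPM, were 0.39, 0.30 and 0.33, against 0.15 for egfra.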
